A study of Mus musculus with 6 samples.

Results

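The segments that make up antibody chains were followed in RNA of mouse CD8+ T cells. The members were the genes annotated as immunoglobulin variable (V), diversity (D), joining (J) or constant (C) segments, 264 of the 55414 genes measured. They comprised 218 V segments (113 heavy, 102 kappa and 3 lambda), 19 D segments, 14 J segments and 13 C segments. Of these, 245 had a count above 0 in at least 1 library and 208 passed the filter on low counts (183 V, 13 C, 12 J and 0 D). The 19 at 0 in every library were 11 D and 8 V segments.

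All cells had the OT-I genotype, a transgenic T cell receptor specific for an ovalbumin peptide, and were labelled as CD8+ T cells of spleen and lymph nodes. The N4 group was taken 4 days after stimulation with N4, the ovalbumin peptide itself, plus antibodies to OX40 and 41BB. The T4 group was taken 4 days after T4, a weaker variant of that peptide, with the same antibodies, and the naive group was unstimulated. Each group held 2 libraries. The labels give neither the sorting gate, nor the age or sex of the mice, nor whether the OT-I mice could still make B cells, nor whether replicates were separate animals, so the p-values below reflect spread that could be technical.

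An antibody has paired heavy and light chains. In each developing B cell the heavy chain locus joins 1 V, 1 D and 1 J segment, and the kappa or lambda locus joins 1 V and 1 J segment, each ahead of a constant region. The heavy chain constant segment sets the isotype: Ighm encodes IgM and Ighd IgD, which naive B cells carry in their membrane, and class switching replaces them with the Ighg segments (IgG), Ighe (IgE) or Igha (IgA). Plasma cells, the secreting descendants of B cells, carry far more of this RNA than B cells do. T cells do not assemble complete antibody genes, although the unrearranged Ighm region can be transcribed in T cells.

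The sequences of segments that set the libraries apart come from GENCODE M21 transcripts on GRCm38. The kappa J segments lie on the plus strand of chromosome 6 and are printed 5′ to 3′, with capitals marking the motif TTCGGNNNNGG, which covers the phenylalanine and glycine codons that begin framework 4 of the light chain. The motif was searched on both strands of all 14 J segments and found on the sense strand of 8 and the antisense strand of 0. Igkj3 lacks it, and Igkj3 had at most 0.749% of kappa J counts in any library.
Igkj1 (chr6:70722562-70722599): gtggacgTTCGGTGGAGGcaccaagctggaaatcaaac
Igkj2 (chr6:70722916-70722954): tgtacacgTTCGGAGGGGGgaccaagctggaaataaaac
Igkj3 (chr6:70723223-70723258): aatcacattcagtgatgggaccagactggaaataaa
Igkj4 (chr6:70723548-70723585): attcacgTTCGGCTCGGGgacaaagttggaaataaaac
Igkj5 (chr6:70723886-70723923): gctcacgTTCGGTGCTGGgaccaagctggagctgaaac

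The V exon of Igkv16-104 (plus strand, 299 bases) is shown because this segment held 47.6% of the kappa V counts of naive replicate 2. Capitals run from the codon of the conserved cysteine that precedes the third complementarity-determining region to the 3′ end. Its nearest relative among the kappa V exons, Igkv11-125, was 74.9% identical, so it has no near-identical partner in this annotation that could share its reads.
Igkv16-104 (chr6:68425774-68426072): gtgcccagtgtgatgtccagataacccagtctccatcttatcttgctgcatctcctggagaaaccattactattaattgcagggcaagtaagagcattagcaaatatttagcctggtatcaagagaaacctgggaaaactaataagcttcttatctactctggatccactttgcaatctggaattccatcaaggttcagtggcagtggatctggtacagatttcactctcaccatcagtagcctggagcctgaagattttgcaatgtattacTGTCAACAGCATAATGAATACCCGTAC

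Ighm RNA ends in one of 2 ways, which decide whether IgM is secreted or held in the membrane. The 3′ coding ends of both forms are shown, with the stop codon in capitals. The secretory tail lies at chr12:113420867-113420928 on the minus strand, and the membrane tail is spliced across an intron.
Ighm-201, secretory tail: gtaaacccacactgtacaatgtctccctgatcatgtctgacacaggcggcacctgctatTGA
Ighm-202, membrane tail: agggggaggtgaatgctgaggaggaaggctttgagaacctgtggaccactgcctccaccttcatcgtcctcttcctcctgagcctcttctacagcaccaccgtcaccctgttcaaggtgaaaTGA

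The 2 naive libraries stood far apart in these genes, so they are given separately throughout. Library totals ran from 269033066 to 335968843 estimated counts. Immunoglobulin segments took 0.0195% and 0.021% of all counts in N4 libraries, 0.107% and 0.0973% in T4 libraries, and 0.527% in naive replicate 1 against 5.37% in naive replicate 2. Igkc, the kappa constant segment, had the highest count of any gene in naive replicate 2 (2.88% of all counts), and was 61st in naive replicate 1. Among all genes by count it stood at positions 1184 and 925 in N4 and 520 and 569 in T4.

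Scaled to CPM (counts relative to the library total, multiplied by 1e+06) with TMM factors, the segments summed to 238 and 327 CPM in N4 libraries, 788 and 758 CPM in T4 libraries, 4032 CPM in naive replicate 1 and 64489.6 CPM in naive replicate 2. The groups did not overlap, with N4 lowest and naive highest. The means were 282 ± 63.1 in N4 libraries, 773 ± 21.1 in T4 and 34260.9 ± 42749.9 in naive (SD, n = 2 each), and the SD of the naive group exceeded its mean. The N4 mean lay 14.3-fold below naive replicate 1 and 228-fold below naive replicate 2, and the T4 mean lay 5.21-fold and 83.4-fold below them. On the scale of mean log2 CPM the N4 total lay 6.92 below the naive total, or 3.84 below it without naive replicate 2. For the T4 total these differences from naive were 5.47 and 2.38, and for N4 against T4 the log2 ratio was -1.45, or -2.34 under library size scaling. With 2 libraries in each group, exact permutation gives no p below 0.33, so no total was tested. In bulk RNA, fewer cells of a type and less RNA per cell cannot be told apart.

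**Figure D1:**
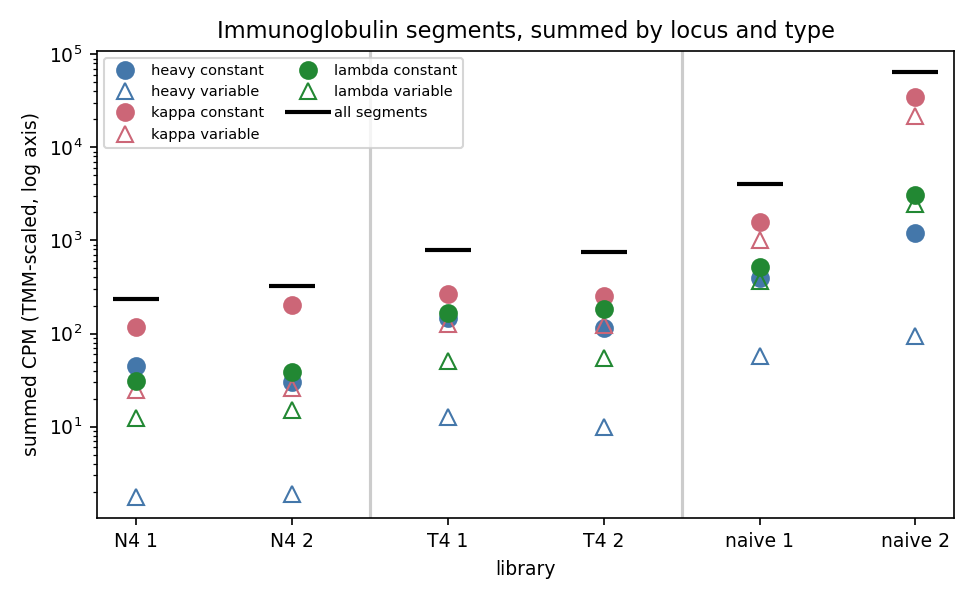
Summed TMM-scaled CPM (log axis) of immunoglobulin segments in each of the 6 libraries, for heavy, kappa and lambda constant (filled circles) and variable (open triangles) segments, with a black bar for all segments. The N4 libraries sum to 238 and 327 CPM, the T4 libraries to 788 and 758 CPM and the naive libraries to 4032 and 64489.6 CPM, and the kappa points of naive replicate 2 rise furthest.

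The difference between the naive libraries was unequal over the loci. The kappa locus summed to 147 and 241 CPM in N4 libraries, 408 and 387 in T4 libraries, 2665 in naive replicate 1 and 57509.2 in naive replicate 2, a 21.6-fold gap between the naive libraries. The lambda locus summed to 44.7 and 54.6 CPM in N4 libraries, 219 and 245 in T4 libraries, 909 in naive replicate 1 and 5667 in naive replicate 2, a 6.23-fold gap. The heavy locus summed to 46.3 and 31.8 CPM in N4 libraries, 161 and 126 in T4 libraries, 458 in naive replicate 1 and 1314 in naive replicate 2, a 2.87-fold gap. Heavy V segments alone differed 1.62-fold between the naive libraries, with 56 of the 96 detected in either of them (10 counts or more) higher in naive replicate 2 and 40 lower. Of the 99 kappa V segments detected there, 93 were higher in naive replicate 2 and 6 lower.

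**Figure D2:**
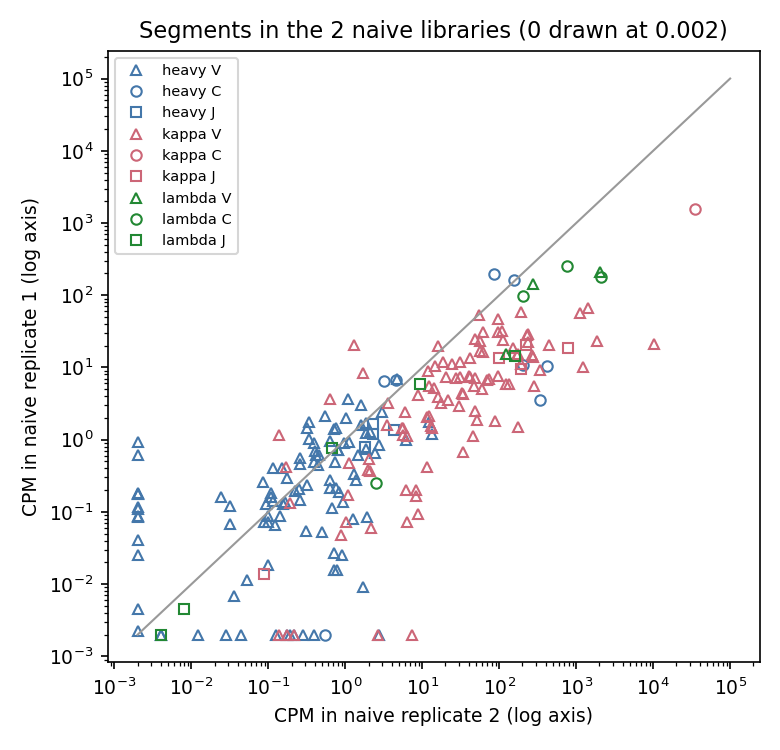
CPM of each V, C and J segment in naive replicate 2 (x, log axis) and naive replicate 1 (y, log axis), coloured by locus, with a grey line of equal levels and values of 0 drawn at 0.002. Kappa segments lie mostly right of the line (93 of 99 kappa V segments higher in naive replicate 2), while heavy V segments lie on both sides of it (56 higher, 40 lower).

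Heavy chain isotypes differed between the groups and between the naive libraries. Ighm made up 97.8% and 98.1% of heavy constant counts in N4, 73% and 76.3% in T4 libraries, 49.6% in naive replicate 1 and 6.97% in naive replicate 2. Igha made up 0.428% and 0.327% in N4 libraries, 23.7% and 20.5% in T4 libraries, 40.8% in naive replicate 1 and 13% in naive replicate 2. The 4 IgG segments together made up 1.52% and 0.917% in N4 libraries, 1.3% and 1.7% in T4 libraries, 8.02% in naive replicate 1 and 79.7% in naive replicate 2. The N4 mix was thus almost wholly Ighm, T4 and naive replicate 1 were mixes of Ighm and Igha, and naive replicate 2 was mostly IgG. Exact binomial 95% intervals of these shares reached at most 0.39 percentage points from the value, and they cover counting error only. Divided by the length of all annotated exons, the IgG share of naive replicate 2 was 83.2%.

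By level, Igha stood at 0.19 and 0.0977 CPM in N4 libraries, 35 and 23.6 CPM in T4 libraries, and 161 and 157.5 CPM in the naive libraries. The naive libraries were nearly equal in Igha while they differed widely in IgG. Ighg1 stood at 0.113 and 0.0586 CPM in N4 libraries, 0 and 0.341 in T4 libraries, 3.59 in naive replicate 1 and 337 in naive replicate 2. Ighg2c stood at 0.498 and 0.142 CPM in N4 libraries, 0.983 and 1.02 in T4 libraries, 10.5 in naive replicate 1 and 421 in naive replicate 2. Of the 8 heavy constant segments, naive replicate 2 was higher in Ighg1, Ighg2b, Ighg2c and Ighe and lower in Ighm, Ighd, Ighg3 and Igha. Ighm itself stood at 43.4 and 29.3 CPM in N4 libraries, 108 and 87.9 in T4 libraries, 196 in naive replicate 1 and 84.3 in naive replicate 2, so T4 and naive overlapped. By counts, Ighg2c was the leading heavy constant segment of naive replicate 2, with 34.8%, ahead of Ighg1 with 27.8%. Divided by the length of all annotated exons, these shares were 50.4% and 20.6%. That length was 1326 bases for Ighg2c and 2592 for Ighg1, membrane exons included. Their secreted forms, which held nearly all of their counts there, had 1111 and 1076 bases, so the wider gap per length rests largely on exons with few counts. Ighg2b, another IgG segment, stood at 0.0634 and 0.0733 CPM in N4 libraries, 0.718 and 0.418 in T4 libraries, 10.9 in naive replicate 1 and 201.7 in naive replicate 2. Ighe was at 0 in both N4 libraries and in naive replicate 1, and reached 0.549 CPM in naive replicate 2.

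**Figure D3:**
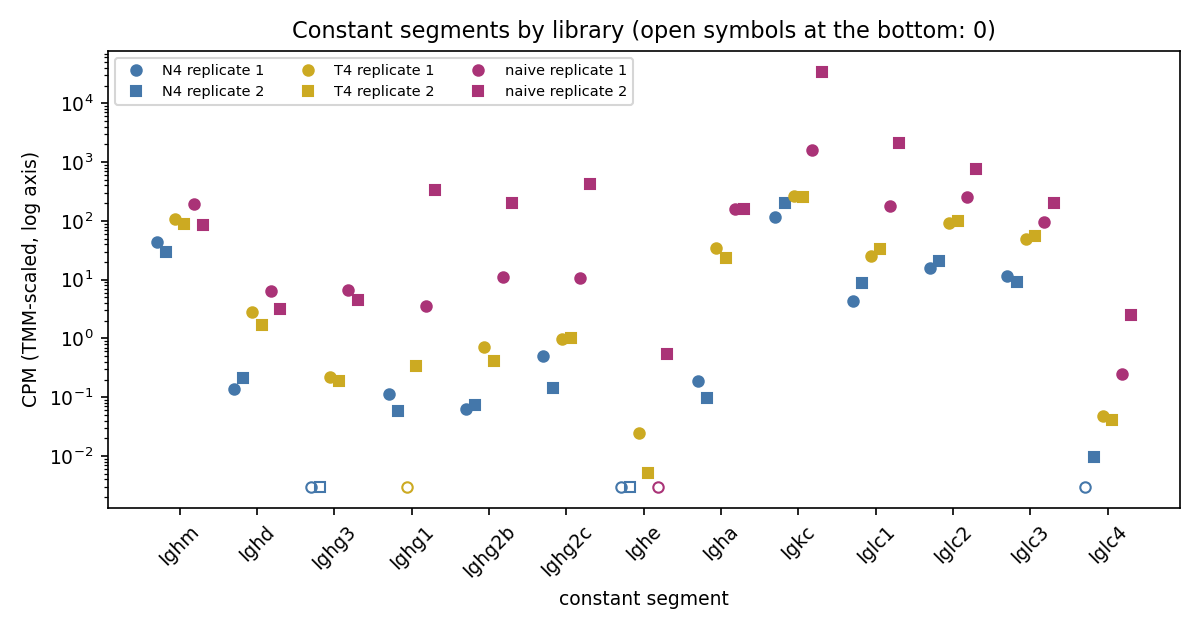
TMM-scaled CPM (log axis) of the 13 constant segments in each library, circles for replicate 1 and squares for replicate 2, with open symbols at the bottom for counts of 0. The naive libraries lie together for Igha (161 and 157.5 CPM) and apart for Ighg1 (3.59 and 337 CPM) and Igkc (1587 and 34586 CPM).

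The transcript table separates membrane from secreted forms, as the authors' software assigned them. The membrane form took 68.5% and 77.6% of Ighm counts in N4, 74.3% and 76.5% in T4 libraries, and 63.6% and 66.6% in the naive libraries. Both naive libraries lay below both N4 libraries and both T4 libraries. Over all heavy constant counts the membrane share was 67.2% and 77.3% in N4 libraries, 58.5% and 61.2% in T4 libraries, 33.5% in naive replicate 1 and 5.71% in naive replicate 2. Secreted forms thus held most heavy chain counts in the naive libraries only. For Ighg1, naive replicate 2 had 83457 secreted and 625 membrane counts.

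Light chains were mostly kappa everywhere. Igkc took 78.8% and 84.1% of light chain constant counts in N4, 62.1% and 57.8% in T4 libraries, 75.2% in naive replicate 1 and 91.9% in naive replicate 2. T4 was lowest and did not overlap N4 or naive. Igkc stood at 116 and 204 CPM in N4 libraries, 269.1 and 253.5 in T4 libraries, 1587 in naive replicate 1 and 34586 in naive replicate 2. Within lambda, Iglc1 took 13.9% and 22.4% of constant counts in N4, 15.4% and 17.6% in T4 libraries, 33.8% in naive replicate 1 and 68.1% in naive replicate 2, while Iglc2 led in every other library. By level, Iglc1 stood at 4.33 and 8.65 CPM in N4 libraries, 25.4 and 32.6 in T4 libraries, 177 in naive replicate 1 and 2078 in naive replicate 2. Iglc2 stood at 15.5 and 21 CPM in N4 libraries, 90.5 and 98.1 in T4 libraries, 250 in naive replicate 1 and 767 in naive replicate 2. The gap between the naive libraries was thus wider for Iglc1 than for Iglc2. Iglc4 stayed at or below 2.49 CPM in every library. Iglc2 and Iglc3 were 95.1% identical over 451 aligned bases, so the split between them is uncertain. Iglc2 also overlaps Iglj2, and Iglc3 an antisense RNA, in an assay whose strand setting is not given. Iglv1 was the leading lambda V segment in every library, from 49.7% to 83.7% of lambda V counts, and is 96.4% identical to Iglv2.

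The ratio of V to C counts also varied. For kappa there were 21.1 and 12.9 V counts per 100 C counts in N4 libraries, 47.4 and 48.5 in T4 libraries, and 63.9 and 62.6 in the naive libraries. For kappa the order N4, T4, naive held without overlap, and the naive libraries matched here despite their difference in level. Lambda did not keep that order, with 39.5 and 38.8 in N4 libraries, 30.5 and 29.3 in T4 libraries, and 69.9 and 80.2 in the naive libraries. For heavy chains the ratio was 3.98 and 6.38 in N4 libraries, 8.56 and 8.71 in T4 libraries, 14.6 in naive replicate 1 and 7.72 in naive replicate 2.

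By evenness, kappa V use was widest in naive replicate 1 and narrowest in naive replicate 2, while by number of segments at equal depth N4 was narrowest. Of 102 kappa V segments, 50 and 41 had 10 counts or more in N4, 82 and 80 in T4 libraries, and 94 and 99 in naive. These numbers rise with depth, and at an equal depth of 5376 kappa V counts the expected number with any count was 62 and 54 in N4 libraries, 83.1 and 79.9 in T4 libraries, and 87.9 and 81.4 in the naive libraries. The effective number of segments (inverse Simpson index, the number of equally used segments that would give the same evenness) was 18.4 and 11.3 in N4 libraries, 11.1 and 10.1 in T4 libraries, 36.1 in naive replicate 1 and 4.06 in naive replicate 2. With the top segment of each library left out, it was 19.1 and 19.4 in N4 libraries, 16.1 and 15.2 in T4 libraries, 37.2 in naive replicate 1 and 13.8 in naive replicate 2. Without that segment naive replicate 2 lay near the T4 libraries.

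The top kappa V segment was Igkv14-126 in all 4 stimulated libraries, with 11.6% and 24.3% in N4 and 23% and 24.9% in T4. In naive replicate 1 it was Igkv1-117 with 6.5%, and in naive replicate 2 Igkv16-104 with 47.6%. Igkv1-117 is 96.8% identical to Igkv1-110, which held 5.51% in naive replicate 1, so their counts may be split and that lead is uncertain. Igkv16-104 stood at 2.28 and 1.77 CPM in N4 libraries, 1.85 and 1.04 in T4 libraries, 21.2 in naive replicate 1 and 10290.2 in naive replicate 2. Its share was also 9.3% and 6.75% in N4 libraries, against 1.45% and 0.842% in T4 and 2.09% in naive replicate 1. Igkv14-126, whose nearest relative Igkv14-111 is 90.9% identical, stood at 2.84 and 6.37 CPM in N4 libraries, 29.4 and 30.7 in T4 libraries, and 11.8 and 31.1 in naive. Its level in T4 thus overlapped naive although the summed kappa V level did not. Igkv6-23, the next segment of naive replicate 2 by share, stood at 0.883 and 1.78 CPM in N4 libraries, 1.39 and 0.553 in T4 libraries, 23.2 in naive replicate 1 and 1884 in naive replicate 2. N4 and T4 overlapped in it. As a description over 102 segments that share a library's depth, Spearman's rho of kappa V shares was 0.54 between the N4 libraries, 0.71 between T4 and 0.78 between naive.

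**Figure D4:**
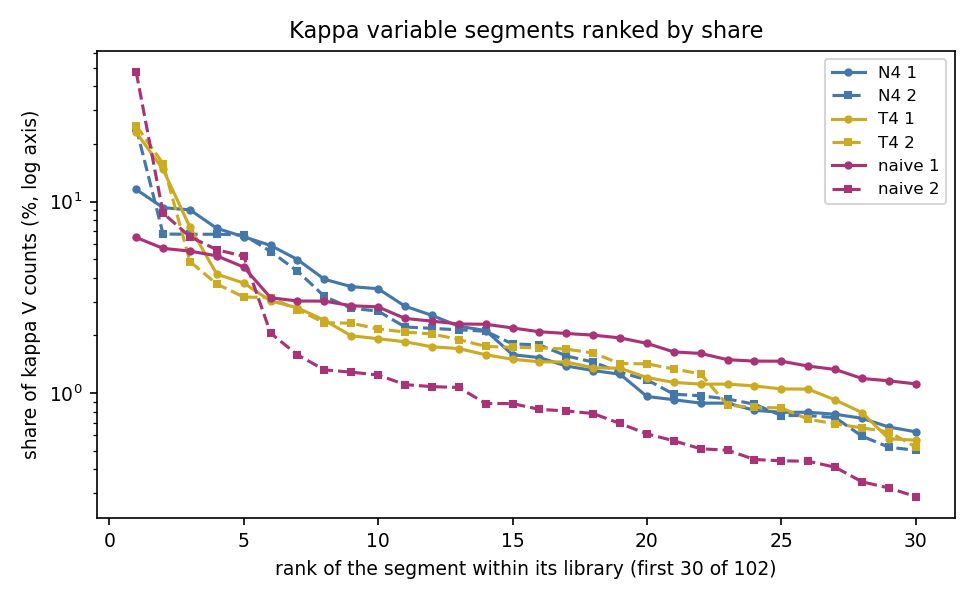
Share of kappa V counts (log axis) of the 30 leading segments of each library, ranked within the library. The curve of naive replicate 2 starts at 47.6% and is lowest at rank 30, while that of naive replicate 1 starts at 6.5% and is highest at rank 30.

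Heavy V segments gave fewer counts, 391 and 390 in N4 libraries, 5101 and 3882 in T4 libraries, and 25354 and 23310 in naive, of which 10 and 9, 45 and 40, and 83 and 82 of 113 segments had 10 counts or more. Both N4 libraries led with Ighv1-47 and Ighv1-54, which took 35.8% and 22.5% in N4 replicate 1 and 29.2% and 34.9% in N4 replicate 2. Ighv1-47 stood at 0.634 and 0.557 CPM in N4 libraries, 0 and 0.031 in T4 libraries, and 0 and 0.212 in naive, and was the 1 segment of 245 that lay above both naive libraries in both N4 libraries. Its log2 fold change of 2.496 (SE 2.37) did not pass the test (edgeR adjusted p = 0.52). Ighv5-4 led both T4 libraries with 23.7% and 19.5%, Ighv5-17 led naive replicate 1 with 12%, and Ighv1-26 led naive replicate 2 with 14.5%. Ighv1-26 and Ighv1-18 are 97.4% identical, and Ighv5-4 and Ighv5-6 95.4%, so the counts within each pair may be split. D segments reached at most 0.0683 CPM in sum.

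Kappa J use also set naive replicate 2 apart. Igkj1 led with 51.8% and 59.7% of kappa J counts in N4, 42.6% and 48.6% in T4 and 33% in naive replicate 1, while it held 17.2% in naive replicate 2. Igkj2, printed above, held 26.1% and 22% in N4 libraries, 28.6% and 19.8% in T4 libraries, 29.9% in naive replicate 1 and 60.2% in naive replicate 2. Exact binomial 95% intervals reached at most 2.7 points. Igkj4 stood at 0.439 and 0.767 CPM in N4 libraries, 1.07 and 1.41 in T4 libraries, 9.56 in naive replicate 1 and 192 in naive replicate 2. Iglj1, the lambda J segment that pairs with Iglc1, stood at 0.308 and 0.615 CPM in N4 libraries, 1.78 and 2.58 in T4 libraries, 14.3 in naive replicate 1 and 159 in naive replicate 2. Both segments keep the order N4, T4, naive without overlap.

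**Figure D5:**
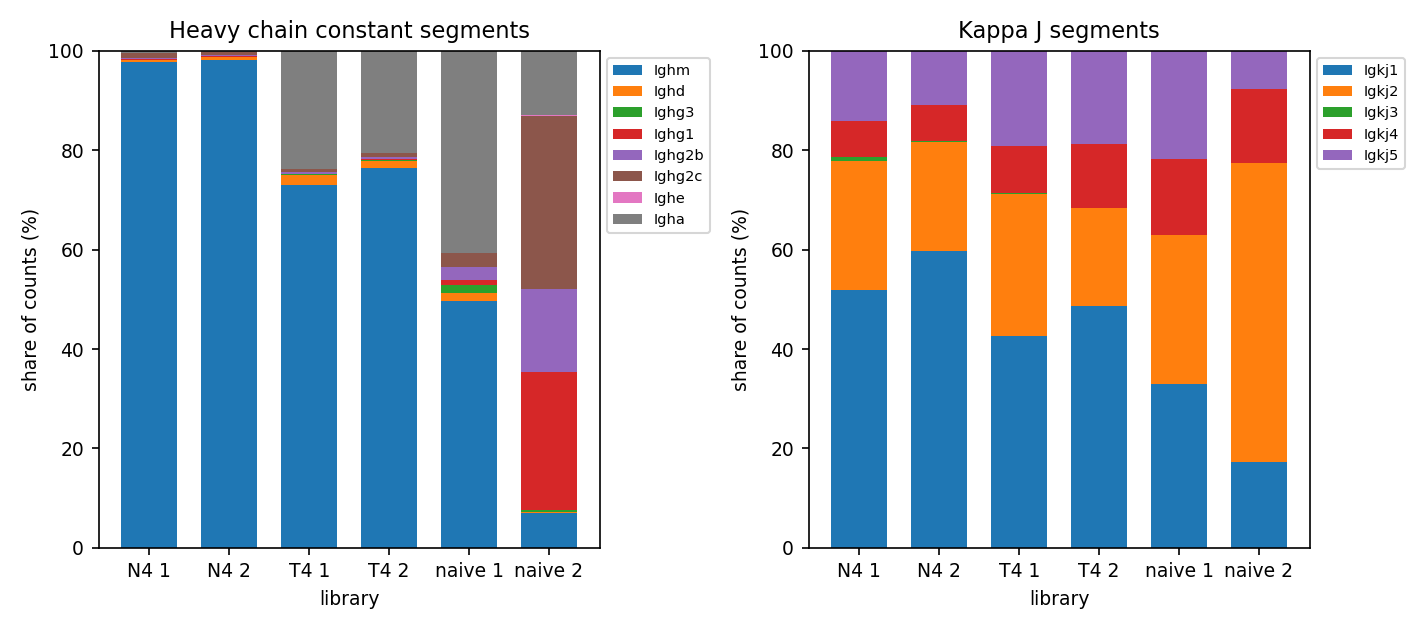
Share of counts (%) of the 8 heavy chain constant segments (left) and the 5 kappa J segments (right), stacked for each library. Ighm fills 97.8% and 98.1% of the N4 bars and 6.97% of the naive replicate 2 bar, and Igkj2 fills 60.2% of the naive replicate 2 bar.

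Setting N4 against naive addresses the state reached with the stronger peptide. Of 208 tested segments, 109 were lower in N4 and 0 higher (edgeR quasi-likelihood test, adjusted p under 0.05), where 7.18% of all 23003 genes were lower and 4.87% higher. The filter ran over all groups together, so the 90 segments at 0 in both N4 libraries passed it through the other groups. Those could not be called higher, so the split of 109 to 0 partly reflects this selection. The 109 were 11 of 13 C segments, 11 of 12 J segments and 87 of 183 V segments. Among V segments, 20 of 84 heavy, 64 of 96 kappa and 3 of 3 lambda were lower. The median log2 fold change of the segments was -8.90, against -0.09 over all genes. With the 90 segments at 0 in both N4 libraries set at their bound (3 counts per library) and 1 at 0 in both groups left out, it was -6.23. In both N4 libraries, 199 of the 245 segments with any count lay below both naive libraries, an order that was not counted over all genes. The count was 33 of 224 without N4 replicate 1 and 21 of 224 without N4 replicate 2, where 3.67% and 2.45% of all genes were called in either direction, against 12.1% with all libraries. It was 95 of 216 without naive replicate 2 (17.4% of all genes called), of which 91 were among the 109.

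The segments of smallest p were Igha, Igkv17-127, Ighg3, Igkv5-39, Iglv2 and Igkv1-135. Igha fell with a log2 fold change of -10.10 (SE 0.52, edgeR adjusted p = 0.0064). Ighg3 was at 0 in both N4 libraries and at 6.66 and 4.56 CPM in naive, at least 397-fold lower (floor of 3 counts per library, edgeR adjusted p = 0.0071). Igkv17-127 stood at 0.154 and 0.2 CPM in N4 and at 23.3 and 56.7 CPM in naive, and fell with a log2 fold change of -7.82 (SE 0.60, edgeR adjusted p = 0.0071). It is 98% identical to Igkv17-121, so its counts are less certain. The log2 fold changes were -6.30 for Igkv5-39, -5.59 for Iglv2 and -7.44 for Igkv1-135 (edgeR adjusted p = 0.0071 to 0.008). Without naive replicate 2 each of these 6 segments remained lower and past the threshold. Igkc had a log2 fold change of -6.82 (SE 1.49, edgeR adjusted p = 0.039), or -3.32 without naive replicate 2 (adjusted p = 0.0064). Ighm had -1.95 (SE 0.46, adjusted p = 0.046), a call that ended under library size scaling, in a fit of only these groups, and when any library other than naive replicate 2 was left out. The Igkc call ended without either N4 library or without T4 replicate 2. Ighg1 (adjusted p = 0.069) and Ighe (adjusted p = 0.20) were the 2 constant segments that did not pass.

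Setting T4 against naive addresses the weaker peptide. Of 208 segments, 0 passed the edgeR test in either direction, where 0.0348% of all genes were lower and 0.0826% higher. At an unadjusted p under 0.05 there were 139, a level whose share over all genes was not counted. The DESeq2 Wald test called 116 of 215, all lower, where it called 5.25% of all genes lower. The median log2 fold change was -4.98, or -4.76 with segments at 0 set at their bound, against 0 over all genes. In both T4 libraries, 173 of 245 segments lay below both naive libraries and 4 above them, again without a count over all genes. Without naive replicate 2 the edgeR test called 18 of 216 segments, and without naive replicate 1 it called 51 of 213, all lower, where 1.23% and 1.39% of all genes were called in either direction. Igha had a log2 fold change of -2.44 (SE 0.37, edgeR adjusted p = 0.076) and Igkc of -6.11 (SE 1.45, adjusted p = 0.15). Igkc reached adjusted p = 0.043 without naive replicate 2, with a log2 fold change of -2.61. Ighm had a log2 fold change of -0.52 (SE 0.44, adjusted p = 0.68) that turned to 0.12 without naive replicate 1.

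Between the peptides, few segments passed the test. Of 208 segments, 18 were lower in N4 and 0 higher (edgeR), where 4.47% of all genes were lower and 3.48% higher. The 75 segments at 0 in both N4 libraries but not in T4 could not be called higher here. An unadjusted p under 0.05 was reached by 69, a level whose share over all genes was not counted. The 18 were 4 of 13 C, 2 of 12 J and 12 of 183 V segments. For V segments that was 6.56%, near the share of all genes lower. The median log2 fold change of the tested segments was -3.48, or -1.84 with segments at 0 set at their bound, against -0.20 over all genes. In both N4 libraries, 111 of 245 segments lay below both T4 libraries and 3 above them, also without a count over all genes. The constant segments lower in N4 were Igha, Ighd, Ighg3 and Iglc3. Igha fell with a log2 fold change of -7.66 (SE 0.48, edgeR adjusted p = 0.013). Ighd, at 0.136 and 0.21 CPM in N4 and 2.84 and 1.68 CPM in T4 libraries, had -3.70 (SE 0.59, adjusted p = 0.028), and Ighg3 was at least 14.5-fold lower (adjusted p = 0.022). Iglc3 had a log2 fold change of -2.34 (SE 0.41, adjusted p = 0.032). Among V segments, Igkv12-89 was at 0 in both N4 libraries and at 1.008 and 1.061 CPM in T4 libraries, at least 73.3-fold lower (adjusted p = 0.021). Igkv17-127 had a log2 fold change of -4.62 (adjusted p = 0.02) and Igkv5-39 of -3.59 (adjusted p = 0.023). Igkc was lower in both N4 libraries than in both T4 libraries but did not pass (log2 fold change -0.71, SE 1.16, adjusted p = 0.74). The count of 18 became 3 of 224 without N4 replicate 1, where 1.13% of all genes were called in either direction, and 2 of 224 without T4 replicate 1, where 0.178% were. It was 0 without N4 replicate 2 and without T4 replicate 2, fits in which 0 genes of the whole table were called (62 and 73 segments at an unadjusted p under 0.05). It was 54 of 213 without naive replicate 1 and 50 of 216 without naive replicate 2, where 17.3% and 17.6% of all genes were called, against 7.96% with all libraries.

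Markers of the cells that make antibody were set beside these values. Of 12 B cell markers, whose sum was 4.33 and 3.19 CPM in N4 libraries, 65.4 and 62.6 in T4 libraries, and 28.1 and 67.1 in naive, 6 of 11 tested were lower in N4 than in naive and 5 of 11 lower in N4 than in T4. Pax5, a transcription factor gene of B cell identity, and Blk, a kinase gene of B cells, were at 0 in both N4 libraries. So were Cr2 and Fcer2a, which encode B cell surface receptors. Pax5 and Fcer2a were also at 0 in naive replicate 1. Pax5 was not called in N4 against naive (edgeR adjusted p = 0.256), and Fcer2a did not pass the filter. In T4 against naive 0 of 11 passed (edgeR, 2 at an unadjusted p under 0.05, 2 with DESeq2). Per CPM of B cell markers there were 54.9 and 103 CPM of immunoglobulin in N4, 12.1 and 12.1 in T4 libraries, 144 in naive replicate 1 and 962 in naive replicate 2. The T4 libraries and naive replicate 2 thus had like sums of B cell markers with very different immunoglobulin levels.

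Among 12 plasma cell markers 3 were lower in N4 than in naive, Jchain, Mzb1 and Tnfrsf17. Jchain, which links IgM and IgA into polymers, stood at 11 and 7.99 CPM in N4 libraries, 26.6 and 26.1 in T4 libraries, 462 in naive replicate 1 and 2578 in naive replicate 2. It fell in N4 against naive with a log2 fold change of -7.33 (edgeR adjusted p = 0.012) and had -5.85 in T4 against naive (adjusted p = 0.076). Mzb1, a chaperone gene of antibody-secreting cells, stood at 3.3 and 4.12 CPM in N4 libraries, 17.2 and 20.5 in T4 libraries, 22.8 in naive replicate 1 and 256 in naive replicate 2. At an unadjusted p under 0.05 (edgeR) there were 10 of 12 in N4 against naive, with Irf4, Sec11c and Txndc5 higher and the rest lower. DESeq2 called 10 of 12 in either direction, where it called 28.8% of all genes. Irf4, Prdm1, Sec11c and Txndc5, which T cells also express, lay above both naive libraries in both N4 libraries without passing the test. Irf4, a transcription factor gene of activated lymphocytes and plasma cells, stood at 6.77 and 8.51 CPM in N4 libraries, 2.34 and 3.52 in T4 libraries, and 0.585 and 2.09 in naive (N4 against naive log2 fold change 2.52, edgeR adjusted p = 0.058). The log2 fold changes in N4 against naive were 1.72 for Prdm1, 1.27 for Sec11c and 0.86 for Txndc5 (edgeR adjusted p = 0.067 to 0.20). The list thus held members on both sides of naive. In T4 against naive and in N4 against T4, 0 of the 12 passed (edgeR, 6 and 3 at an unadjusted p under 0.05, 6 and 4 with DESeq2).

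Rag2, which encodes part of the recombinase that joins V, D and J segments, was at 0 in both N4 libraries and reached 2.81 CPM in naive replicate 2. Of 10 antibody Fc receptor and transport genes, 9 were tested, of which 5 were lower in N4 than in naive and 4 lower in N4 than in T4, among them Fcer1g, the shared signalling chain, and Fcgr3. Fcer1g stood at 37 and 43.7 CPM in N4 libraries, 239 and 284 in T4 libraries, and 688 and 2007 in naive. The 4 surrogate light chain genes, which pair with the heavy chain before a light chain exists, had 0 calls in N4 against naive (edgeR, 2 at an unadjusted p under 0.05, 2 with DESeq2).

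Markers of other cells also varied between the libraries, not all in the order of immunoglobulin. Summed neutrophil markers stood at 47.8 and 39.2 CPM in N4 libraries, 12.4 and 4.84 in T4 libraries, 2455 in naive replicate 1 and 25367.9 in naive replicate 2, with 6 of 8 lower in N4 than in naive. Summed macrophage markers stood at 7.95 and 5.19 CPM in N4 libraries, 26.9 and 25.9 in T4 libraries, 929 in naive replicate 1 and 344 in naive replicate 2, with 8 of 8 lower in N4. Neutrophil markers were thus higher in naive replicate 2, as immunoglobulin was, and macrophage markers were lower there. Between the peptides, summed neutrophil markers were higher in N4 than in T4, the reverse of immunoglobulin. Summed erythroid markers stood at 423 and 359.7 CPM in N4 libraries, 6509.9 and 8123 in T4 libraries, 3447 in naive replicate 1 and 9231 in naive replicate 2, with 6 of 7 lower in N4 than in naive and 5 of 7 lower in N4 than in T4. Summed dendritic cell markers stood at 57.8 and 51.2 CPM in N4 libraries, 335.9 and 318.8 in T4 libraries, 1200.4 in naive replicate 1 and 779.7 in naive replicate 2, with 4 of 8 lower in N4 than in naive. Summed erythroid markers in T4 thus overlapped naive, and the dendritic cell sum kept the order N4, T4, naive. That sum was mostly H2-Aa and Cd74 (727 and 450.7 CPM in naive replicate 1), and its members did not share 1 order. H2-Aa kept the order of the sum. Itgax was highest in N4, with 4.04 and 3.72 CPM, against 1.97 and 1.91 in T4 libraries and 2.78 and 2.65 in naive. Summed T cell markers ranged from 7784 to 14037.3 CPM over the 6 libraries, with 0 of 10 called in N4 against naive (edgeR, 2 at an unadjusted p under 0.05, 2 with DESeq2). The part of these other cells in the immunoglobulin values was not tested.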

How the data were processed

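Per the labels, a miRNeasy Micro kit and a SMARTer ultra-low poly(A) kit were used. The tools named in the submitters' processing notes, with no role stated, were DESeq2 1.30.1, R 4.0.5, StringTie 2.1.0, SAMtools 1.9 and STAR 2.7.1a, beside build mm39. The authors deposited estimated counts per gene and transcript, as whole numbers and not normalized. No source used here gives strand or annotation release. Segment types, symbols, lengths, sequences and coordinates came from GENCODE M21 (GRCm38), which held 94.1% of the gene identifiers. Genes were tested with edgeR 4.0.16 in R 4.3.3 (filterByExpr, TMM, quasi-likelihood test on group means over 6 libraries, Benjamini-Hochberg over 23003 genes, threshold 0.05), with DESeq2 1.42.0 as an alternative. The test was also tried on simulated data for N4 against naive. It found 0% of 4-fold, 35.8% of 16-fold and 77.3% of 64-fold changes, with 1 false call. A gene that was not called may thus still differ widely. Standard errors are the fold change over the square root of F. Summed shares and CPM came from the same counts, with exact 95% binomial intervals. No replicates were duplicates (chi-square per degree of freedom 130.6 to 2380.6). Named were all C segments, the leading V segments by level and by library, and those of smallest p. Members, lists and tests were chosen with earlier results of these data known. Some genes of the marker lists are not reported here.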

Additional observations from a re-analysis of the deposited data

How the results depend on the processing

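Counts of called segments depended on the method more than directions did. In N4 against naive the 109 segments became 174 with the DESeq2 Wald test and 167 with no filter, and 21 to 113 with each library left out. The share of all genes called in either direction was 12.1% at first, 28.8% with DESeq2 and 12.2% with no filter. In T4 against naive the 0 became 2 under library size scaling, 116 with DESeq2, 107 with no filter, and 0 to 51 with each library left out, where 0.117% of all genes were called at first and 0.23%, 9.66% and 2.74% under those 3 settings. In N4 against T4 the 18 became 31, 75 and 78 under the same 3 settings, 38 in a fit of only these groups, and 0 to 54 with each library left out. The share of all genes rose there too, with 7.96% at first, 8.94%, 27.8% and 11% under those 3 settings and 24.7% in the fit of only these groups. DESeq2 tested 211 segments in that comparison and the fit of only these groups tested 132. With a replicate block the counts were 117, 12 and 36, where 15.7%, 0.565% and 14.6% of all genes were called. Same-numbered libraries deviated together with correlations of 0.017, 0.08 and 0.037, so the numbers were not taken as pairing. With library size scaling the all-gene median of log2 fold changes was -0.65, 0.30 and -1.05 in that order of comparisons.

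The log2 ratio of the immunoglobulin total ranged from -7.84 to -3.84 in N4 against naive and from -6.38 to -2.38 in T4 against naive with each library left out, lowest in size without naive replicate 2. In N4 against T4 it was -2.34 under library size scaling and -2.21 over V segments only. Single segments that turned round had not passed the test. In T4 against naive, leaving out each library gave ranges of -1.006 to 0.123 for Ighm, -0.254 to 1.527 for Ighv5-4 and -0.144 to 1.349 for Igkv14-126, each turning without naive replicate 1. In N4 against T4 the ranges were -2.02 to 7.677 for Ighg1, -0.141 to 1.195 for Igkv6-23, -1.12 to 0.068 for Igkv14-111 and -0.686 to 0.327 for Igkj1. With the replicate block, Ighg1 had 1.39 and Igkv6-23 -0.079 in that comparison. Under library size scaling, Igkv16-104 had -0.355 and Igkv6-23 -0.477. The cause was not tested. With 1 library left out of a group, the other is assumed to vary like the other groups. Low heavy V counts in N4 limit what can be said of single segments there.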
